A study of Mus musculus with 7 samples.

Results

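Cdx2, Gata2, Gata3, Tfap2a, Tfap2c, Eomes, Elf3, Elf5, Hand1 and Ascl2 encode transcription factors of the trophectoderm, the outer epithelium of the blastocyst that founds the placenta. They were chosen by name, but with earlier results of these data known. All 10 were found among the 52636 genes of the count table. The samples are inner cell masses (ICMs), the inner group of cells that holds epiblast and primitive endoderm, from mouse blastocysts whose trophectoderm had been stripped by immunosurgery, an antibody and complement treatment that lyses the outer cells. RNA of these 10 genes was read as a measure of trophectoderm carry-over, and of any difference after ERK was switched on, although inner cells can express some of them, such as Tfap2c and Eomes. All embryos were Sox2Cre;CRAFR26, a genotype that pairs a tamoxifen-inducible cRAF construct, an activator of ERK signalling, with Sox2Cre, a Cre driven by a gene of the epiblast. The labels do not say whether trophectoderm cells carried the active construct. The mouse line was derived from embryonic stem cells injected into morulas, and 2 clones, 4 and 8, were used. Embryos of both groups were flushed at embryonic day 2.5 and spent 24 h in culture, always with PD173074 (250 nM), which blocks FGF receptors. The vehicle group received ethanol for 4 h (labelled 0 h, 3 libraries: clone4_1, clone4_2 and clone8_1) and the tamoxifen group 250 nM 4-hydroxytamoxifen for 4 h (4 libraries: clone4_1, clone4_2, clone8_1 and clone8_2). Each library came from a pool of 10 ICMs, which the labels call epiblast of embryonic day 3.5. A further vehicle sample was dropped by the study's own quality control.

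In the cleavage-stage embryo, outer cells keep Hippo signalling low, so that YAP1 and TAZ (the product of Wwtr1) reach the nucleus and act with TEAD4 on Cdx2 and Gata3, while inner cells hold them in the cytoplasm. CDX2 holds down the pluripotency genes in the outer layer. GATA3, GATA2, TFAP2A and TFAP2C act with it on trophoblast genes, and EOMES and ELF5 maintain the trophoblast stem cells that FGF from the inner cells sustains through ERK. ELF3 is an epithelial ETS factor, HAND1 promotes trophoblast giant cells, and ASCL2, from an imprinted gene, serves the later spongiotrophoblast.

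Libraries held 22981498 to 42294719 counts. Vehicle clone8_1 stood apart by short transcripts: over 1164 protein-coding genes under 1000 nt its median log2 deviation from the median over libraries was -1.29, against values from -0.04 to 0.22 in the other 6. None of the 10 factors has a typical transcript that short (the shortest is Ascl2, at 1209.5 nt), but levels scaled by transcript length depend on short transcripts too, as given below. Esr1, whose product binds tamoxifen and which tamoxifen-inducible constructs often borrow from, ranged from 0.795 to 5.86 CPM (the usual depth-scaled counts, with library sizes adjusted by TMM factors) with overlapping groups. Nothing in the labels says that pools came from separate litters, so p-values measure the spread between these pools only.

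Trophectoderm factors were abundant in the stripped ICMs. In the vehicle libraries the per-length level (counts per kb of transcript, scaled to a fixed sum in each library, as TPM is) was 725 ± 95.5 for Elf3 (SD, n = 3). Gata3 had a per-length level of 495 ± 91.5 (SD, n = 3) and Cdx2 of 391 ± 71.3 (SD, n = 3). Nanog, the homeobox factor of the epiblast, stood at 501 ± 182 on the same scale (SD, n = 3), and the ranges of Gata3 (417 to 596) and Cdx2 (348 to 474) lay inside that of Nanog (327 to 691). With a fixed sum, a library poor in short transcripts, as vehicle clone8_1 was, can give longer ones higher values. Gata3 had a per-length level of 596 there against 472 in vehicle clone4_1, with CPM of 972 and 986. The vehicle range of Elf3 was 648 to 832 in per-length level and 842 to 858 in CPM. How far this widened the SDs and ranges was not tested. Among 16229 tested genes with a transcript length, Elf3 exceeded 98.5% in vehicle per-length level, Gata3 97.6% and Cdx2 96.8%. In bulk RNA, fewer trophectoderm cells and less RNA per cell cannot be told apart.

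The other factors were graded below these. Tfap2c, which the germline and other epithelia also use, had a vehicle per-length level of 179 ± 27.4 (SD, n = 3), and Hand1 of 44.7 ± 13.4 (SD, n = 3). Then came Tfap2a at 25.1 ± 6.03, Eomes at 15.5 ± 3.61 and Gata2 at 14.4 ± 10.1, each a vehicle per-length level (SD, n = 3). Elf5 (4.41 ± 3.96) and Ascl2 (1.45 ± 1.98) closed the order, on the same scale (SD, n = 3). Neighbours in this order whose vehicle ranges did not overlap were Elf3 and Gata3, Cdx2 and Tfap2c, Tfap2c and Hand1, and Tfap2a and Eomes. The ranges of Gata3 and Cdx2, of Hand1 and Tfap2a, and of all neighbours from Eomes down overlapped. Such ranges do not compare genes within a library. In each vehicle library, CPM over typical length was higher for Gata3 than for Cdx2, and for Hand1 than for Tfap2a. It was also higher for Gata2 than for Elf5, and for Elf5 than for Ascl2. Among these pairs, only Eomes and Gata2 changed order between vehicle libraries. With the longest transcript as the length, the ranges of Tfap2a and Eomes overlapped too, while those of Hand1 and Tfap2a, and of Gata2 and Elf5, no longer did.

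**Figure D1:**
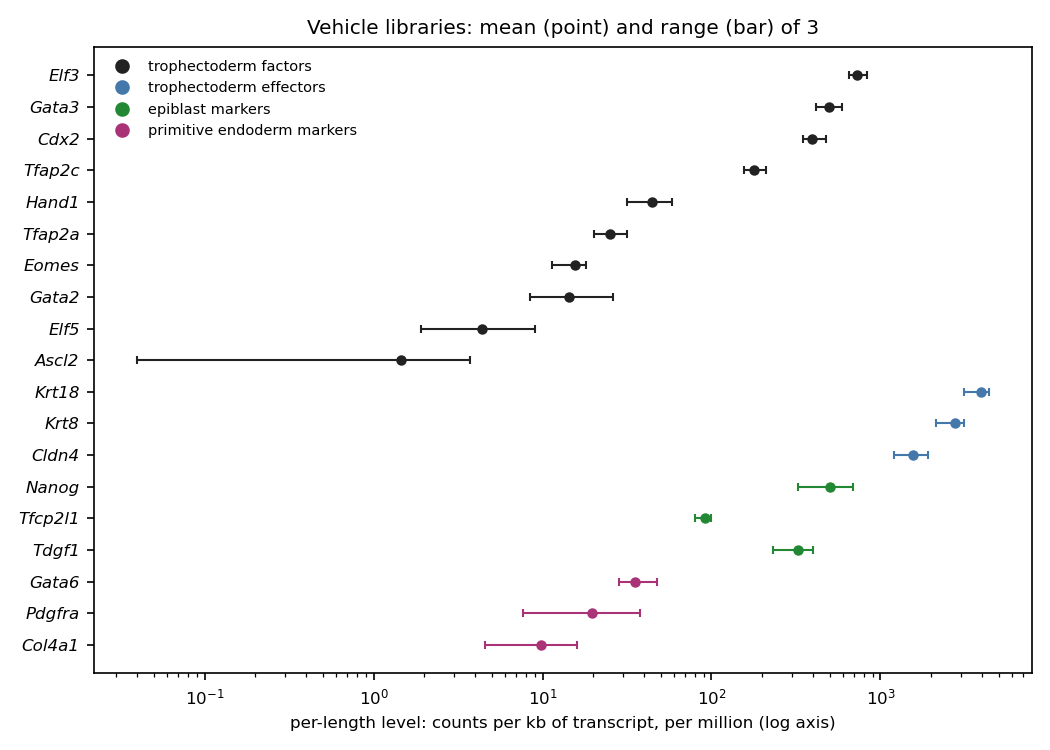
Per-length level in the vehicle libraries on a log axis (counts per kb of transcript, scaled to a fixed sum), with the mean of 3 libraries as a point and their range as a bar, for the 10 trophectoderm factors and the 3 most abundant genes of the effector, epiblast and primitive endoderm lists. Gata3 and Cdx2 lie within the range of Nanog, Elf3 reaches above it, the keratins are higher still, and Elf5 and Ascl2 lie lowest.

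The most abundant products of the trophectoderm epithelium were higher still, while the median vehicle per-length level of the 12 effectors was 191, below Elf3, Gata3 and Cdx2. Keratins Krt18 and Krt8, which form its intermediate filaments, had vehicle per-length levels of 3913 ± 690 and 2760 ± 538 (SD, n = 3). Cldn4, a tight-junction claudin, had 1549 ± 359 (SD, n = 3). All 12 effector genes of the fixed list were detected. Markers of later trophoblast were near absent: 3 of 10 (Tpbpa, Prl2c2 and Ctsq) had no count in any library, 5 had fewer than 10 counts in total, and the list summed to 1.59 to 3.08 CPM per library. Of its 3 highest genes, Prl3b1, a placental lactogen, averaged 1.01 CPM in vehicle, and Gcm1 and Syna, of the syncytiotrophoblast, averaged 0.824 and 0.288 CPM.

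Upstream windows are shown for the 3 most abundant factors, since these carry most of the signal (78.8% to 86.0% of the summed CPM of the 10 genes in each library). The sequences are the 250 bases before the RefSeq start (GRCm38.p6), written along the gene's strand. Capitals mark matches, on either strand, to the letters of 4 binding motifs: GGAATG for TEAD, GCCNNNGGC for AP-2 (the TFAP2 family), AGATAA for GATA and CCGGAA for ETS factors. Gata3 is at chr2:9878601-9878850 (minus strand), Elf3 at chr1:135258473-135258722 (minus strand) and Cdx2 at chr5:147307250-147307499 (minus strand). By GENCODE coordinates the Gata3 window lies inside the gene (9857078 to 9890034). The windows of Elf3 and Cdx2 overlap the ends of their genes (135258568 and 147307270).
Gata3: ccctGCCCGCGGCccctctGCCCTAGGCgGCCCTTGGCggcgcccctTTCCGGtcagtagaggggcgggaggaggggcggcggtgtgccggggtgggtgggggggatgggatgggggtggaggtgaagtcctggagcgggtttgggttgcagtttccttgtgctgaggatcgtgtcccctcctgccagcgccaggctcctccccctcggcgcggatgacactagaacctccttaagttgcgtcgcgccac
Elf3: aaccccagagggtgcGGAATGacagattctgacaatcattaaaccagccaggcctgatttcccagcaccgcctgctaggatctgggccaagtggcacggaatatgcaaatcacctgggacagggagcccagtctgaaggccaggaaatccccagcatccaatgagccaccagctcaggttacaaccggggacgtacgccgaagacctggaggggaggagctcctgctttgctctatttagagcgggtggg
Cdx2: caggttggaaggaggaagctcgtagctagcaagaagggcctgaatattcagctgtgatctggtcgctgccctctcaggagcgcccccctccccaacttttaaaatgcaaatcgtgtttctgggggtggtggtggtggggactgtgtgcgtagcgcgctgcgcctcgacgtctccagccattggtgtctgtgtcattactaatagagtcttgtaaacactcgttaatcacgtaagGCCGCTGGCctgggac

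The Gata3 window held 3 AP-2 matches and 1 ETS match, none overlapping another, and 0.289% of all 32851 RefSeq windows of this length held at least 3 AP-2 matches. The Elf3 window held 1 TEAD match and the Cdx2 window 1 AP-2 match. Across the 11 windows of the 8 factors in the table, TEAD letters were in 3 windows (12.6% of all RefSeq windows), AP-2 letters in 3 (13.7%), ETS letters in 1 (12.0%) and GATA letters in 0 (9.99%). GC content was 70.0% in the Gata3 window, 57.2% in that of Elf3 and 55.2% in that of Cdx2, against a median of 52.4% and a 90th percentile of 69.2%. All fixed letters of the AP-2 motif are G or C, and the threshold of 3 is the count in the Gata3 window. The share among windows of like GC content was not counted. A match is a run of letters, not a site that was measured. Tfap2c and Hand1 were not matched.

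Against this baseline, all 10 factors had lower estimates after 4 h of tamoxifen, but no difference passed the test. In edgeR's quasi-likelihood test 0 of 10 had an adjusted p under 0.05, as had 0 of all 16248 genes tested (0%). Over all genes, edgeR gave 970 with an unadjusted p below 0.05, DESeq2 called 4 and limma voom 0. DESeq2 and limma voom also called 0 of the 10. All 10 had passed the filter on low counts. Estimates below 0 made up 48.3% of all genes tested. The median log2 fold change was -0.29 over the factors and 0.02 over all genes. The 10 estimates were below 0 under each of the 3 other scalings tried, and without vehicle clone4_2 only 6 were. Gata3 and Elf3 (2 of 10) had an unadjusted p under 0.05 (background, lower: 3.28%), also in DESeq2 and in limma voom. Groups did not overlap for Gata3, Elf3 and Tfap2c, lower with tamoxifen in each (background, lower: 4.74%). Many of these genes belong to a trophectoderm list already seen to be lower in these libraries, so the shared direction is not independent evidence.

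Summed over the 10 genes, expression was 2680 to 2771 CPM in the vehicle libraries and 1756 to 2220 CPM in the tamoxifen libraries. That is 0.264% to 0.284% of counts in vehicle and 0.177% to 0.220% in tamoxifen libraries. Gata3, Elf3 and Cdx2 make most of these sums, so they say little about the rest. Each of the 10 genes had its highest CPM in a vehicle library and its lowest in a tamoxifen library. Single libraries held most of these extremes: vehicle clone4_2 was highest for 7, and tamoxifen clone4_2 was lowest for 5 and tamoxifen clone8_2 for 4. The share of all genes with this pattern was not counted.

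**Figure D2:**
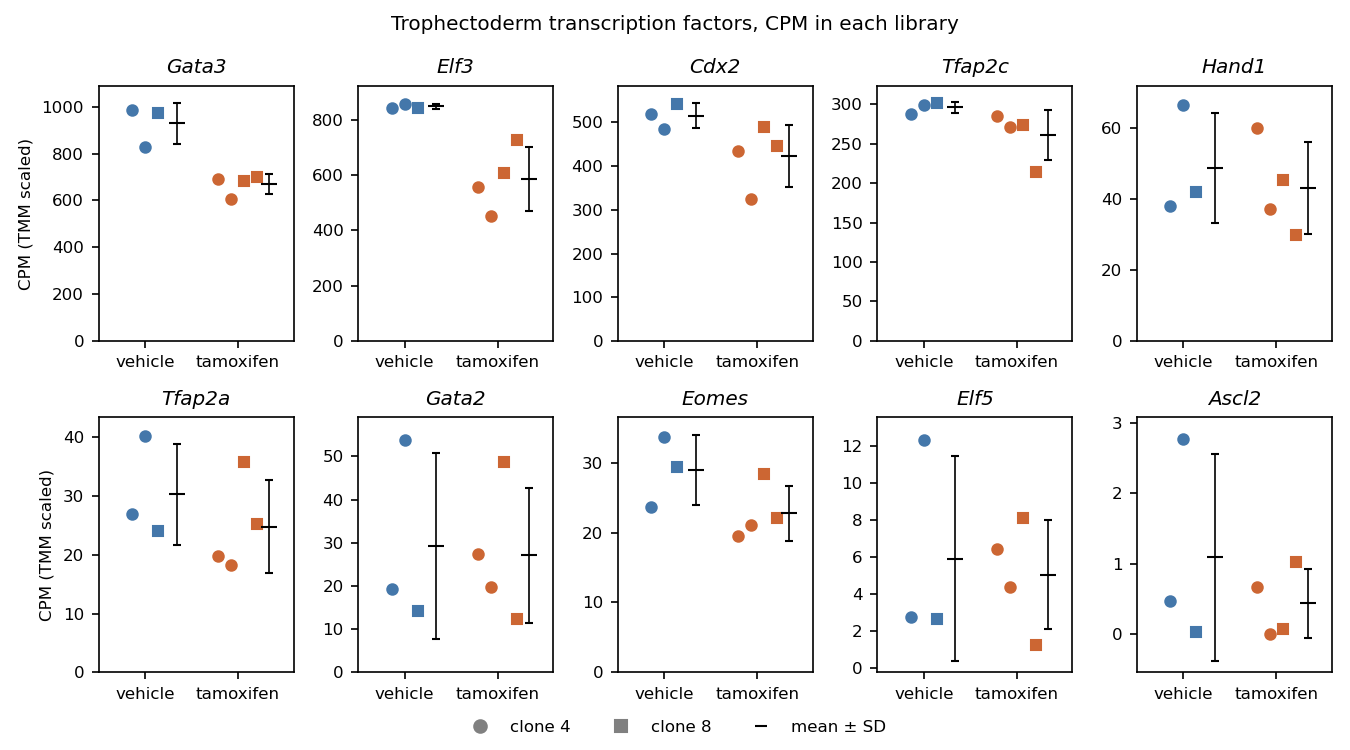
CPM of each of the 10 trophectoderm factors (linear axes that reach 0), with 1 point per library by treatment, circles for clone 4, squares for clone 8, and the mean ± SD beside them. All tamoxifen libraries lie below all vehicle libraries for Gata3, Elf3 and Tfap2c. Gata2, Elf5 and Ascl2 are highest in vehicle clone4_2, and Gata2 is nearly as high in tamoxifen clone8_1.

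Gata3, the zinc-finger factor that acts beside CDX2 downstream of TEAD4 (ENSMUSG00000015619, chromosome 2, 9857078 to 9890034, GRCm38), was at 986, 828 and 972 CPM in vehicle clone4_1, clone4_2 and clone8_1. In tamoxifen clone4_1, clone4_2, clone8_1 and clone8_2 it was at 692, 607, 682 and 700 CPM. The lowest vehicle library lay above the highest tamoxifen library, and the tamoxifen libraries were close to each other. The edgeR log2 fold change was -0.47 ± 0.14 (SE; unadjusted p = 0.00803, adjusted p = 0.794). Its exons share 77 of 3978 bp with 9230102O04Rik on the same strand, and antisense genes overlap it, so a small part of these counts could belong elsewhere.

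Elf3 (ENSMUSG00000003051, chromosome 1, 135253575 to 135258568) was at 842, 858 and 843 CPM in the vehicle libraries, in the order above, and these differed little. The tamoxifen libraries had 555, 453, 608 and 728 CPM. All lay below vehicle and were more spread out. The change was -0.53 ± 0.18 on the log2 scale (SE; unadjusted p = 0.0125, adjusted p = 0.794, edgeR), the lowest of the 10 estimates after that of Ascl2. An antisense gene, Gm26642, covers the locus and shares 162 of 2217 exonic bp.

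Cdx2, the homeobox factor that defines the trophectoderm (ENSMUSG00000029646, chromosome 5, 147300805 to 147307270), was at 519, 485 and 543 CPM in vehicle and at 434, 324, 490 and 446 CPM in tamoxifen libraries. Tamoxifen clone8_1 reached past vehicle clone4_2, so the groups overlapped, and tamoxifen clone4_2 was lowest. The log2 fold change was -0.28 ± 0.17 (SE; adjusted p = 0.799, edgeR).

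Tfap2c, an AP-2 factor needed for the early trophectoderm programme (ENSMUSG00000028640, chromosome 2, 172549593 to 172558622), had 288, 299.5 and 301 CPM in vehicle libraries. With tamoxifen it had 285, 271, 274 and 214 CPM. The groups were apart only narrowly, and tamoxifen clone8_2 lay well below the rest. The log2 fold change was small, at -0.18 ± 0.15 (SE; adjusted p = 0.825, edgeR). Its paralogue Tfap2a (ENSMUSG00000021359, chromosome 13, 40715302 to 40738376) had 26.9, 40.2 and 24.1 CPM in vehicle and 19.8, 18.3, 35.9 and 25.3 CPM in tamoxifen libraries. These values overlapped broadly, with highs in vehicle clone4_2 and tamoxifen clone8_1.

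Eomes, a T-box factor of trophoblast stem cells (ENSMUSG00000032446, chromosome 9, 118478212 to 118486132), was at 23.7, 33.7 and 29.4 CPM in vehicle libraries and at 19.5, 21.04, 28.3 and 22.1 CPM in tamoxifen libraries. Only tamoxifen clone8_1 reached into the vehicle range. The log2 fold change was -0.35 ± 0.21 (SE; adjusted p = 0.801, edgeR).

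**Figure D3:**
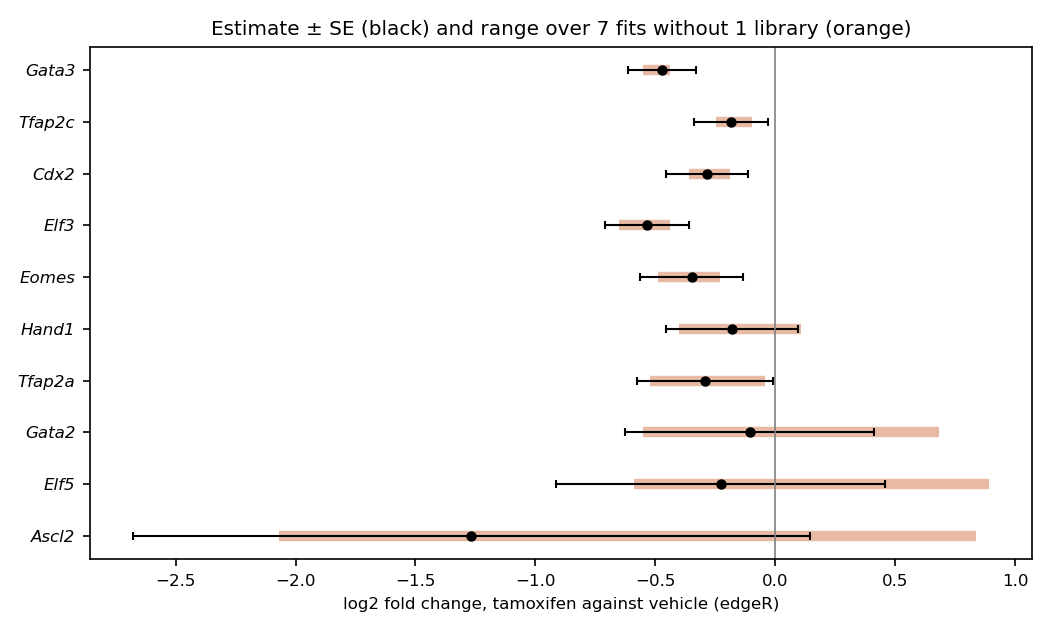
Log2 fold change of each factor, tamoxifen against vehicle, as the edgeR estimate ± SE (black) and as the range over 7 fits that each left out 1 library (orange), ordered by SE. The ranges of Gata3, Tfap2c, Cdx2, Elf3, Eomes and Tfap2a stay below 0, and those of Hand1, Gata2, Elf5 and Ascl2 cross it.

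Gata2, Elf5, Hand1 and Ascl2 varied more among libraries than between groups. Gata2, which shares trophoblast targets with GATA3 (ENSMUSG00000015053, chromosome 6, 88193891 to 88207032), had 19.3, 53.9 and 14.3 CPM in vehicle and 27.5, 19.7, 48.7 and 12.4 CPM in tamoxifen libraries. Vehicle clone4_2 and tamoxifen clone8_1 were high, and the highest value was 4.35 times the lowest. Elf5, an ETS factor that locks in the trophoblast lineage (ENSMUSG00000027186, chromosome 2, 103411688 to 103450989), had 2.75, 12.3 and 2.66 CPM in vehicle and 6.44, 4.40, 8.09 and 1.24 CPM in tamoxifen libraries. The same pair of libraries was highest, and the span was 9.93-fold.

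Hand1 (ENSMUSG00000037335, chromosome 11, 57828705 to 57832818), a basic helix-loop-helix factor, was at 37.9, 66.5 and 41.9 CPM in vehicle and at 59.9, 37.2, 45.2 and 29.9 CPM in tamoxifen libraries. Vehicle clone4_2 was highest and tamoxifen clone4_1 second, so tamoxifen clone8_1 did not stand out here. Ascl2, from the same factor class (ENSMUSG00000009248, chromosome 7, 142966829 to 142969264), was close to the limit of detection. It had 19, 89 and 1 counts in the vehicle libraries and 28, 0, 2 and 42 counts in the tamoxifen libraries. The 0 in tamoxifen clone4_2 allows up to 0.131 CPM at a limit of 3 counts, which covers counting error only. Its log2 fold change of -1.27 ± 1.41 (SE; adjusted p = 0.856, edgeR) is set by vehicle clone4_2.

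That library was highest for 7 of the 10 factors. Without vehicle clone4_2, the estimates of these 4 genes turned positive: 0.68 for Gata2, 0.89 for Elf5, 0.11 for Hand1 and 0.84 for Ascl2 on the log2 scale, and the median over the 10 factors was -0.11 instead of -0.29. Tfap2a was at -0.04 without vehicle clone4_2. For Gata3 (-0.55), Elf3 (-0.53), Cdx2 (-0.33), Tfap2c (-0.18) and Eomes (-0.23) the sign stayed below 0 in that fit. The median over the 10 factors was -0.44 without vehicle clone8_1 and -0.50 without tamoxifen clone8_1. The epithelial genes were mixed in vehicle clone4_2. Aqp3, a water channel gene, was highest there of all 7 libraries (594.5 CPM), while Krt8 was at 2588 CPM and Krt18 at 2772 CPM there, the lowest of the 3 vehicle libraries for both. Their summed list was highest in vehicle clone4_1 (11580 CPM) and then in tamoxifen clone8_1 (9981 CPM).

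**Figure D4:**
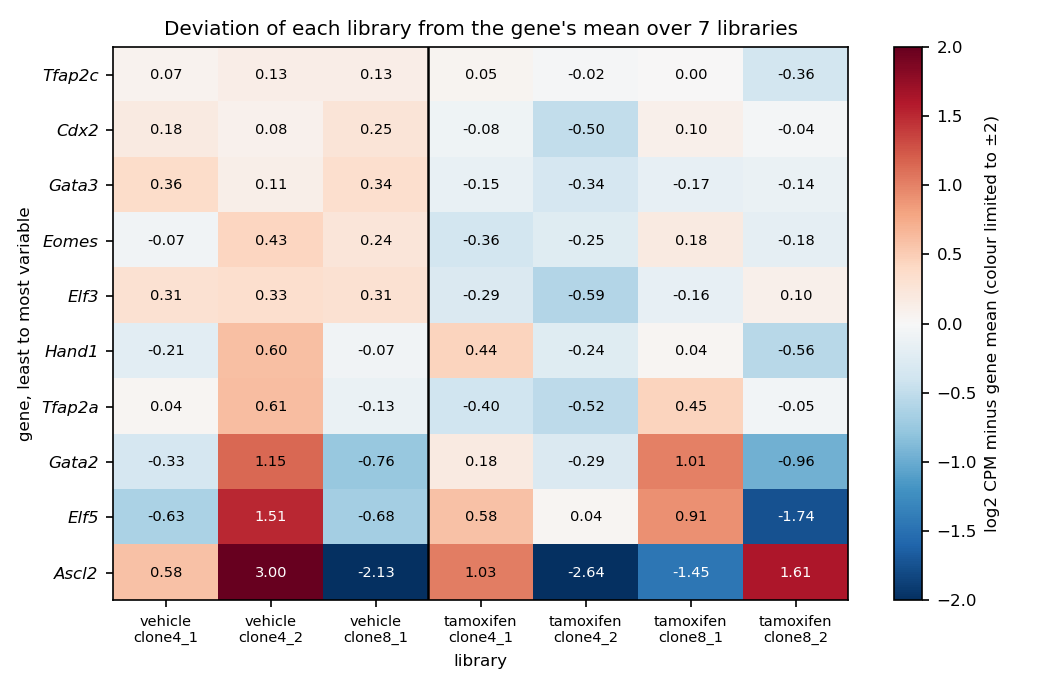
Log2 CPM of each factor in each library minus its mean over the 7 libraries, with factors ordered from least to most variable and a line between vehicle and tamoxifen libraries. Gata3, Elf3, Cdx2 and Tfap2c are above their mean in all vehicle libraries, and of these only Gata3 is below it in all tamoxifen libraries. Gata2, Elf5 and Ascl2 are high in vehicle clone4_2 and uneven in the rest.

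The clones were then set side by side. In clone 4, with 2 libraries per condition, the mean log2 CPM was lower with tamoxifen for all 10 factors. Over all genes, the edgeR fit to clone 4 alone gave estimates below 0 for 8246 of 16060. Vehicle clone4_2, the library highest for 7 of the 10 factors, is 1 of the 2 vehicle libraries here. Elf3, Gata3, Tfap2a and Cdx2 had an unadjusted p under 0.05 in the edgeR fit to clone 4 alone (4 of 10; background, lower: 4.33%), and 0 of 10 had an adjusted p under 0.05 (0% of 16060 genes). The clone 4 log2 fold changes were -0.76 ± 0.15 for Elf3, -0.49 ± 0.15 for Gata3, -0.82 ± 0.27 for Tfap2a and -0.41 ± 0.17 for Cdx2 (SE). In clone 8, with 1 vehicle library and no test of its own, 6 factors were lower and 4 were higher. The share of all genes lower in clone 8 was not counted. The clone 8 difference in log2 CPM was -0.49 for Gata3, -0.34 for Elf3, -0.31 for Tfap2c and -0.22 for Cdx2, and it was 0.33 for Tfap2a, 0.78 for Gata2, 0.26 for Elf5 and 2.20 for Ascl2.

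Whether the change differed between clones was tested by the interaction of clone and condition. It was called for 0 of the 10 factors in edgeR's quasi-likelihood test, against 3.16% of all genes tested, and Tfap2a alone had an unadjusted p under 0.05 (0.0403; adjusted p = 0.309). Without the filter on low counts, edgeR called 991 of 28364 genes, Gata2 among them (interaction 1.72 ± 0.51, SE; adjusted p = 0.0238, against 0.493 to 0.632 under the other settings). This test rests on vehicle clone8_1, the library poor in short transcripts.

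Other genes of the trophectoderm were read from lists that are not independent of earlier results of these data, and 0 of them were called. Of the 12 effectors, 8 had lower and 4 higher estimates, with a median log2 fold change of -0.25, near the -0.29 of the factors. Krt8 (-0.31 ± 0.18), Krt18 (-0.25 ± 0.24) and Cldn4 (-0.32 ± 0.17) had overlapping groups (log2 fold change, SE). Aqp3 was the only effector of 12 whose groups did not overlap (background, lower: 4.74%), at 437 to 594.5 CPM in vehicle and 358 to 403 CPM in tamoxifen libraries. Krt7 also had an unadjusted p under 0.05 (0.0292, edgeR), with 71.2 CPM in vehicle clone4_1 and at most 28.8 CPM elsewhere. Both were named after their values were seen.

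Relative to the effectors, the level of the factors overlapped between groups. Their summed CPM was 28.5% ± 4.27 of the summed effector CPM in vehicle (SD, n = 3) and 26.1% ± 4.06 in tamoxifen libraries (SD, n = 4), with ranges of 23.7% to 32.0% and 22.2% to 31.9%. Krt18 and Krt8, at 3320 and 3176 CPM in vehicle on average, make most of the effector sum (mean 9757 CPM). Gata3, Elf3 and Cdx2 make most of the factor sum, so this share says little about the other genes. Gata3 was 25.7% to 32.0% of Krt8 in vehicle and 22.6% to 31.1% in tamoxifen libraries. Both pairs of ranges overlapped. Summed effector CPM was 8383 to 11580 in the vehicle libraries and 6844 to 9981 in the tamoxifen libraries, again overlapping.

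Epiblast markers leaned the other way. Of 10, 8 had higher and 2 lower estimates, with a median log2 fold change of 0.48 and 0 called. Nanog (-0.16 ± 0.21) and Tfcp2l1 (-0.11 ± 0.16) were the lower ones and Tdgf1, a Nodal co-receptor, was at 0.56 ± 0.26 (log2 fold change, SE). Gdf3, named after its values were seen, was the only epiblast marker of 10 whose groups did not overlap (57.8 to 69.5 CPM and 75.0 to 114 CPM; background, higher: 3.71%). Summed epiblast marker CPM was 1665 to 2187 in the vehicle libraries and 1800 to 2681 in the tamoxifen libraries. The ratio of summed factor CPM to it was 1.22 to 1.65 in the vehicle libraries and 0.655 to 1.21 in the tamoxifen libraries, lowest in tamoxifen clone4_2. None of the 10 epiblast markers was at 0 in all 7 libraries. The part of the mix of cell types in the lower trophectoderm values was not tested.

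Primitive endoderm markers had 7 higher and 1 lower estimates among 8 tested, with a median log2 fold change of 0.50 and 0 called. Their summed CPM was 132 to 301 in the vehicle libraries and 225 to 335 in the tamoxifen libraries. Sox17 and Lama1, named after their values were seen, were higher in all tamoxifen libraries (7.80 to 27.1 CPM and 6.75 to 16.2 CPM) than in any vehicle library (at most 4.34 CPM and 5.20 CPM). These were 2 of 8 tested, against the same background of 3.71%. Gata6, the primitive endoderm GATA factor, was at 65.4 ± 10.9 CPM in vehicle (SD, n = 3) and 90.7 ± 39.9 CPM in tamoxifen libraries (SD, n = 4). Its estimate was 0.47 ± 0.29 on the log2 scale (SE), and Pdgfra, a growth factor receptor, was the 1 lower gene (-0.50 ± 0.45, SE). Col4a1, a basement membrane collagen, was at 0.58 ± 0.33 (SE).

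Genes upstream of Cdx2 and Gata3 had no shared direction. Of 12 Hippo and Notch pathway genes, 7 had higher and 5 lower estimates, with a median log2 fold change of 0.08 and 0 called. Tead4, the TEAD factor required for Cdx2 expression, was at 94.8 ± 13.3 CPM in vehicle (SD, n = 3) and 87.2 ± 13.6 CPM in tamoxifen libraries (SD, n = 4). Wwtr1 (log2 fold change -0.10 ± 0.21) and Nf2, a Hippo activator (0.18 ± 0.18), also had overlapping groups (SE). Tead1, named after its values were seen, was the only gene of the 12 whose groups did not overlap (background, higher: 3.71%), at 20.3 to 24.7 CPM in vehicle and 27.2 to 50.4 CPM in tamoxifen libraries (log2 fold change 0.72 ± 0.23, SE; adjusted p = 0.794, edgeR).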

How the data were processed

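RNA-seq was read from 1 deposited table of raw counts per Ensembl gene for 7 libraries, with no normalization by the authors. The submitters' processing notes name bcl2fastq 2.19.1, STAR 2.5.3a and mm10. The counting program, annotation release, strand setting and handling of duplicates are not given in the sources used here, so antisense reads may be included. Of 52636 genes, 52489 matched GENCODE M21 (GRCm38, the assembly of mm10), which gave symbols, coordinates and lengths. Promoter sequences are from RefSeq (GRCm38.p6).

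Counts were fitted with edgeR 4.0.16 in R 4.3.3 (TMM factors, expression filter by group, quasi-likelihood test, 1 term for condition), and p-values were adjusted over all 16248 genes by the Benjamini-Hochberg method at 0.05. Log2 CPM used a prior count of 2. Standard errors came from the estimate and its F statistic. The per-length level used the median length of a gene's basic transcripts. Alternatives were other scalings and filters, DESeq2 1.42.0, limma 3.58.1 (voom), clone or replicate number as a term, and fewer libraries. The fitting code was tested on simulated data. No library repeated another: chi-square over genes, divided by its degrees of freedom, was at least 25.2 for each pair.

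The factors, lists and tests were chosen with earlier results of these data known. All 10 factors are named. From each other list the 3 genes of highest mean CPM are named, and paralogues from 1 CPM.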

Additional observations from a re-analysis of the deposited data

How the results depend on the processing

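Gata3, Elf3, Cdx2, Tfap2c, Eomes and Tfap2a kept a log2 fold change below 0 under each of 19 alternatives. The sign of the other 4 was reversed in some. For Gata2 the estimate was 1.2e-06 with clone as a covariate and 0.30 with the replicate block, and it ranged from -0.55 to 0.68 over the fits that left out 1 library. Elf5 gave 0.0062 with clone, 0.51 with the replicate block and -0.59 to 0.89 without 1 library. Without 1 library, Hand1 ranged from -0.40 to 0.11 and Ascl2 from -2.07 to 0.84. The number of factors below 0 was 6 to 10 over these fits. In each case the cause was not tested. No factor had an adjusted p under 0.05 in any fit of condition. Among all genes, DESeq2 called 4 and edgeR without both clone8_1 libraries 2, against 0. The interaction was called for 991 of 28364 genes without a low-count filter, against 514 of 16248 with it, so more genes were also tested. DESeq2 called it for 1016 of 16248 genes. Without the filter the interaction was called for 1 factor (Gata2), and that of Gata3 was 0.0040 instead of -0.0099. Replicate numbers gave no sign of pairing. Same-numbered deviations from the group mean correlated at 0.01, 0.02 and -0.07 across genes, and those of other pairs at -0.085 to 0.062. The replicate block called 0 genes, as did the main fit without it, so these calls cannot decide whether libraries were paired. With longest transcripts the vehicle per-length level moved to 879 for Elf3, 629 for Gata3, 497 for Cdx2, 216 for Tfap2c and 18.7 for Tfap2a, and which neighbours overlapped changed as given above. Ascl2 had at most 89 counts in a library, which limits its precision, and it has no value under a minimum mean count of 50.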

Other observations

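Of 18 paralogues of the 10 factors, 9 passed the filter on low counts. There were 3 (Gata5, Tfap2d and Tbr1) with no count in any library, and 5 had fewer than 10 counts in total, those 3 included. Those with a mean of at least 1 CPM were Gata6, Elf2, Gata1, Elf1, Elf4 and Gata4, and 0 of the 9 tested were called. Groups did not overlap for 2 of the 9, both lower, against 4.74% of all genes tested. Gata1, the GATA factor of red cell precursors, had 11.3 to 16.4 CPM in vehicle and 4.23 to 9.52 CPM in tamoxifen libraries, without overlap (log2 fold change -0.96 ± 0.31, SE; unadjusted p = 0.0111, adjusted p = 0.794, edgeR). Elf2, an ETS factor related to Elf3 and Elf5, had 54.5 to 56.8 CPM in vehicle and 35.9 to 51.8 CPM in tamoxifen libraries, also without overlap (-0.37 ± 0.19, SE; adjusted p = 0.794, edgeR). Elf1 (-0.64 ± 0.40) and Elf4 (-0.33 ± 0.43) had overlapping groups (log2 fold change, SE). Gata4 averaged 1.19 CPM in vehicle and 1.68 CPM in tamoxifen libraries.

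Of 10 other regulators of trophoblast, 9 were tested, 3 with higher and 6 with lower estimates and 0 called. Id2, an inhibitor of helix-loop-helix factors, ranged from 366 to 838 CPM over the libraries, with a log2 fold change of -0.40 ± 0.30 (SE). Klf5, a zinc-finger factor of the early trophectoderm, ranged from 222 to 561 CPM (0.10 ± 0.33, SE), and Grhl2, a grainyhead factor of epithelia, from 49.3 to 77.5 CPM (-0.24 ± 0.17, SE). Arid3a, named after its values were seen, was the only gene of the 9 whose groups did not overlap (3.71% of all genes tested, higher), at 0.810 to 1.80 CPM in vehicle and 2.11 to 4.22 CPM in tamoxifen libraries. Its log2 fold change was 1.30 ± 0.47 (SE; adjusted p = 0.794, edgeR).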
